A study of Mus musculus with 20 samples.

Results

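The 48 genes described here act in DNA replication (23 genes) or in mitosis (25 genes). They were chosen by name, from a list of symbols, and all 48 were found among the 27911 genes of the count table. Polyadenylated RNA was sequenced from clonal lines of ATDC5, a mouse line of cartilage precursor cells that forms chondrocyte-like cells in medium with insulin. The Kmt2d-/- group held 2 clones, named 10-7 (clone 1) and 96-9 (clone 2) in the labels, in which both Kmt2d alleles lack the SET domain, the catalytic part of the protein. The Kmt2d+/+ group held 3 clones, named 10-5, 10-7 and 10-8 (clones 1 to 3). Kmt2d encodes a histone H3 methyltransferase that acts at enhancers and is mutated in Kabuki syndrome. Each clone was harvested after 7 days in chondrogenic medium with insulin, transferrin, selenium, ascorbic acid and beta-glycerophosphate (day 7), and before differentiation (day 0). This gave 10 libraries in 4 groups. A clone is a distinct cell line and the only kind of biological replicate, and the design states it so. The name 10-7 belongs to clone 1 of the Kmt2d-/- group and to clone 2 of the Kmt2d+/+ group.

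Each library was run on 2 flow cells, and the estimated counts of the runs were summed. Summed libraries held 35792773 to 66237188 counts, and 15467 genes passed the filter on low counts, all 48 members among them. The lowest member count in any library was 352. Kmt2d itself stood at 175 and 113 CPM (counts scaled to a common library size) in the Kmt2d-/- clones 1 and 2 at day 7, against 187, 173 and 207 CPM in Kmt2d+/+ clones 1, 2 and 3. Its day 0 levels were 205 and 148 CPM in Kmt2d-/- clones, against 211, 185 and 195 CPM in Kmt2d+/+ clones. The genotypes differed by a log2 fold change of -0.39 at day 7 and -0.16 at day 0 (edgeR adjusted p = 0.363 and 0.731). A gene-wide count says nothing of the deleted domain and is no check of the genotype labels. The summed level of 8 chondrocyte markers was 1020 to 27700 CPM in Kmt2d-/- libraries and 38.5 to 1040 CPM in Kmt2d+/+ libraries. In Kmt2d-/- libraries most of it was Col2a1, at 20470 and 24450 CPM at day 7, against 2533 and 806 CPM at day 0. In Kmt2d+/+ clones Col2a1 stood at 332, 126 and 252.5 CPM at day 7, against 2.72, 34.4 and 8.66 CPM at day 0. Kmt2d-/- clones at day 0 thus already held more Col2a1 than Kmt2d+/+ clones at day 7. The summed level of 3 osteoblast markers was 4.57 to 391 CPM in Kmt2d-/- libraries and 6.01 to 738 CPM in Kmt2d+/+ libraries, and it moved with the day. Most of it was Ibsp, a bone matrix gene, at 367 and 382 CPM in Kmt2d-/- clones at day 7, against 4.16 and 17.4 CPM at day 0, and at 729, 89.7 and 236 CPM in Kmt2d+/+ clones at day 7, against 5.44, 31.4 and 15.3 CPM at day 0. The part of these markers in the day results was not tested. Sums of adipocyte, skeletal muscle and epithelial markers reached at most 0.192 CPM in any library, those of immune markers 3.2 CPM and those of endothelial markers 8.18 CPM. Myog and Ckm, defining skeletal muscle genes, were at 0 in all 10 libraries.

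DNA is copied once per cell cycle by a helicase of the Mcm2 to Mcm7 proteins, which Cdc6 and Cdt1 load onto origins and which Cdc45 and the GINS complex activate. Mitosis is then driven by Cdk1 with cyclins A and B and ended by the anaphase promoting complex. Genes of the replication phase are known targets of E2F factors. Genes of mitosis are known to carry a cell cycle homology region (CHR), which the MuvB core of the DREAM complex contacts, often near boxes for the factor NF-Y. In growing cartilage, chondrocytes divide in columns and leave the cell cycle before they enlarge.

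The promoters differed between the replication and the mitosis members in the short motifs they hold. RefSeq promoters (GRCm38.p6) covered 250 bases before to 50 bases after the start and were given for 39 of the 48 members, 18 for replication and 21 for mitosis. Where a gene had several starts, only the most upstream was used, so motifs near other starts were not counted. Both strands were searched for TTTGAA and TTCGAA (CHR), for ATTGG (the NF-Y box, read as CCAAT on the other strand), and for TTTGGCGC, TTTCGCGC and TTCCCGC (E2F), and matches could overlap. A CHR was in 17 of 21 mitosis promoters (81.0%), against 4 of 18 replication promoters (22.2%) and 19.5% of all 27025 promoters. An E2F motif was in 1 of 21 mitosis promoters (4.76%), against 9 of 18 replication promoters (50.0%) and 5.41% of all. The NF-Y box was in 81.0%, 61.1% and 38.0%, in that order. A CHR together with an NF-Y box was in 15 of 21 mitosis promoters (71.4%), 3 of 18 replication promoters (16.7%) and 7.73% of all. A match is a stretch of letters and not a measured binding site. The promoters of Fen1, E2f1 and Mcm10 held no E2F motif, and that of Nusap1 held no CHR and no NF-Y box. The 3 replication promoters printed below are among the 9 with an E2F motif. The 150 bases before the start follow for 5 mitosis and 3 replication members that carry the results or show the motifs, 5′ to 3′ on the gene's strand, with every match to a motif in capitals.
Cdk1, chr10:69352913-69353062, minus strand: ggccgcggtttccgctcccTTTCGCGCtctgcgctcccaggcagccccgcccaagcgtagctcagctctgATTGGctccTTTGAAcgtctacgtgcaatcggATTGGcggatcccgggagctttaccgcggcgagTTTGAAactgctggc
Ube2c, chr2:164769779-164769928, plus strand: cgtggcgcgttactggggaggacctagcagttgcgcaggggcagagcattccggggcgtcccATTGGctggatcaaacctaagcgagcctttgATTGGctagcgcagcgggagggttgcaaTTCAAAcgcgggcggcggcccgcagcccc
Cdc20, chr4:118437344-118437493, minus strand: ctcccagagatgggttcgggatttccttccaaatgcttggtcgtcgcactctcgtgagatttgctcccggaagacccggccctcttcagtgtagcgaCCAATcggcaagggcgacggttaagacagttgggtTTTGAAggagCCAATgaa
Ccnb2, chr9:70421555-70421704, minus strand: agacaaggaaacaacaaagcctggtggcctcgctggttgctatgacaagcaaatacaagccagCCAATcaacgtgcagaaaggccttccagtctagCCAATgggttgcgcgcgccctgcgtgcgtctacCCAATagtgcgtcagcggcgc
Cenpf, chr1:189688087-189688236, minus strand: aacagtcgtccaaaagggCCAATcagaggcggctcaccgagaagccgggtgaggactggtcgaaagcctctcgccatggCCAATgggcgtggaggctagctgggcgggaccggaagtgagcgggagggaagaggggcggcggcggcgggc
Rrm1, chr7:102441545-102441694, plus strand: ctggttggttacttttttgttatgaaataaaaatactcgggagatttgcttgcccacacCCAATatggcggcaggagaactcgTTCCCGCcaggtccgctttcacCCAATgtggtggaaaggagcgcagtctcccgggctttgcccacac
Mcm6, chr1:128359706-128359855, minus strand: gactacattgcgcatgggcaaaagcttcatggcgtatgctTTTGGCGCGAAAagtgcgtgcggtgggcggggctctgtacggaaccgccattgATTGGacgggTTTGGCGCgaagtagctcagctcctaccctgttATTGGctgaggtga
Cdc6, chr11:98908001-98908150, plus strand: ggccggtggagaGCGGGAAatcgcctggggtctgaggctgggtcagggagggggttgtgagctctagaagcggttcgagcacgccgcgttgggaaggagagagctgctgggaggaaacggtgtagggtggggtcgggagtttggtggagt
Capitals in the first 3 mitosis promoters (Cdk1, Ube2c, Cdc20) mark a CHR as TTTGAA or its complement TTCAAA with NF-Y boxes on both sides of a CHR in Cdk1 and Cdc20 and only upstream of it in Ube2c, and Cdk1 also holds TTTCGCGC. Ccnb2 and Cenpf show only NF-Y boxes in this window, and their CHR matches lie outside it. Mcm6 holds 2 copies of TTTGGCGC, with an E2F match on the other strand overlapping the first of them, and Rrm1 and Cdc6 each hold the TTCCCGC motif on one of the strands.

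**Figure D1:**
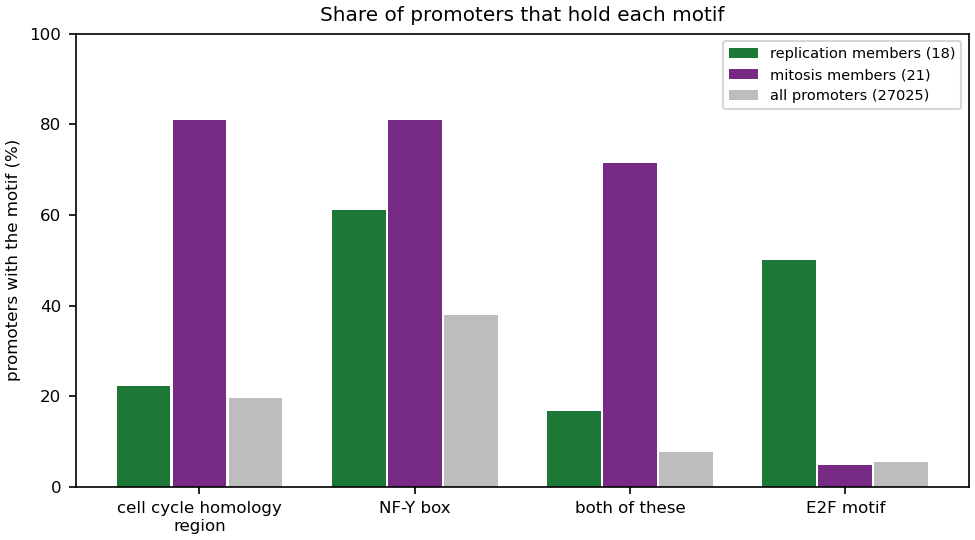
Percent of promoters with each motif (vertical axis, 0 to 100%) for 18 replication members, 21 mitosis members and all 27025 promoters. The CHR reaches 81.0% in the mitosis bars, against 22.2% in the replication bars, and the E2F motif reaches 50.0% in the replication bars, against 4.76% in the mitosis bars.

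All 48 members were well expressed in every group. Per kilobase of exon, averaged over the 10 libraries, Pcna, the sliding clamp of the DNA polymerases, was highest at 84.1 CPM per kb. It was followed by Top2a, the topoisomerase that untangles sister chromatids, at 52.8, Cdc20, an activator of the anaphase promoting complex, at 51.7, and the helicase gene Mcm6 at 51.4 CPM per kb. Mcm3, Mcm4, Mcm7 and Mcm2 stood close behind at 44.3 to 51.3 CPM per kb, while another helicase gene, Mcm5, stood at 6.34 CPM per kb. The clamp loader gene Rfc2 was lowest at 2.04 CPM per kb. The median was 20.02 CPM per kb over replication members and 20.8 CPM per kb over mitosis members. Across libraries a member's highest level was 1.43 times (E2f1) to 4.14 times (Mcm10) its lowest.

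The direction of change from day 0 to day 7 differed among clones of the same genotype. In Kmt2d-/- clone 2, all 23 replication members were lower at day 7 than at day 0, with a median log2 ratio of -0.60. In Kmt2d-/- clone 1 only 5 of 23 were lower, and the median was 0.29. Among Kmt2d+/+ clones, 23 of 23 were lower in clone 1 (median -0.52) and 22 of 23 in clone 3 (median -0.45), but 8 of 23 in clone 2 (median 0.06). Over all genes tested, 47.8% to 51.3% were lower at day 7 in a clone. The clones where most replication members were not lower were therefore Kmt2d-/- clone 1 and Kmt2d+/+ clone 2, the pair that carries the name 10-7. The part of that shared name in the result was not tested.

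Mitosis members followed the same clones with smaller sizes. They were lower at day 7 for 23 of 25 in Kmt2d-/- clone 2 (median log2 ratio -0.35) and for 4 of 25 in Kmt2d-/- clone 1 (median 0.26). In Kmt2d+/+ clones 1, 2 and 3 they were lower for 23, 13 and 19 of 25, with medians of -0.33, -0.04 and -0.17. Of the 48 members, 37 were higher in Kmt2d-/- clone 1 and lower in Kmt2d-/- clone 2. Over all genes tested, 47.8% were lower in Kmt2d-/- clone 1 and 51.3% in Kmt2d-/- clone 2. The share of all genes that moved in opposite directions in these clones was not counted. The flow-cell runs gave each clone's direction separately, with the same sign in both runs for 47 and 46 of 48 members in Kmt2d-/- clones 1 and 2 and for 45, 39 and 42 in Kmt2d+/+ clones 1, 2 and 3. Runs repeat the same library and carry no spread among clones. The SD of a member's log2 level had a median of 0.33 among clones of a group and of 0.07 between runs. All 48 members had the larger SD among clones, but the SDs were about equal for Gins1 (0.25 and 0.24). They were 0.36 and 0.22 for Nusap1 and 0.38 and 0.20 for Cenpf. In bulk RNA, fewer cells in a phase of the cycle and less of these RNAs per cell cannot be told apart.

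**Figure D2:**
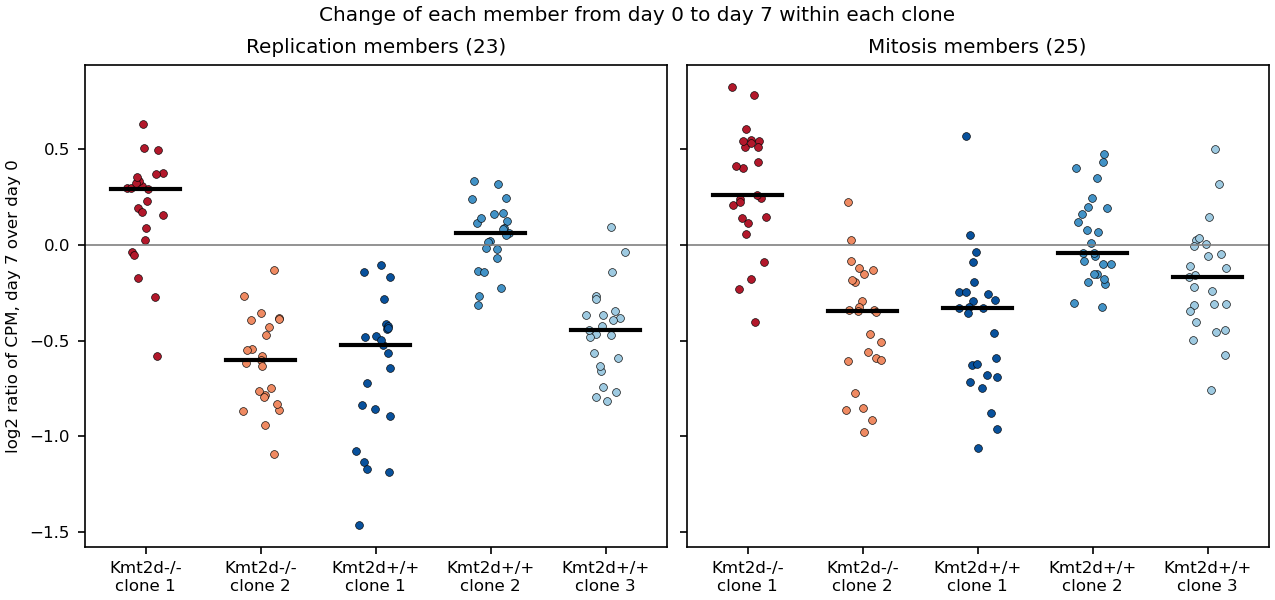
Log2 ratio of CPM at day 7 over day 0 (vertical axis) for each replication and mitosis member in each of the 5 clones, with black lines at the medians. The replication medians are 0.29 and -0.60 in Kmt2d-/- clones 1 and 2, against -0.52, 0.06 and -0.45 in Kmt2d+/+ clones 1, 2 and 3.

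The libraries at each day show where these differences sat. Each member's log2 CPM was centred on its own mean over the 10 libraries, and the median over members was taken. For replication members the median was 0.04 and -0.34 in Kmt2d-/- clones 1 and 2 at day 7, against -0.33, 0.17 and -0.27 in Kmt2d+/+ clones 1, 2 and 3. At day 0 it was -0.13 and 0.29 in Kmt2d-/- clones, against 0.25, 0.18 and 0.20 in Kmt2d+/+ clones. For mitosis members it was 0.06 in both Kmt2d-/- clones at day 7, against -0.16, 0.03 and -0.30 in Kmt2d+/+ clones, and at day 0 it was -0.26 and 0.46, against 0.30, 0.02 and -0.15. Kmt2d-/- clone 2 at day 0 stood apart, with all 25 mitosis members above their mean and the highest library for 16 of them. In Kmt2d+/+ clone 3 at day 7 the mitosis median was the lowest of the 10 libraries, with 0 of 25 members above their mean, while Kmt2d-/- clone 1 at day 0 was the lowest library for the most mitosis members (7, with 6 for the other). Mitosis members minus replication members gave 0.02 and 0.41 in Kmt2d-/- clones at day 7, against 0.17, -0.14 and -0.04 in Kmt2d+/+ clones. Kmt2d-/- clone 1 lay within the range of the Kmt2d+/+ clones on this difference and Kmt2d-/- clone 2 above it.

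**Figure D3:**
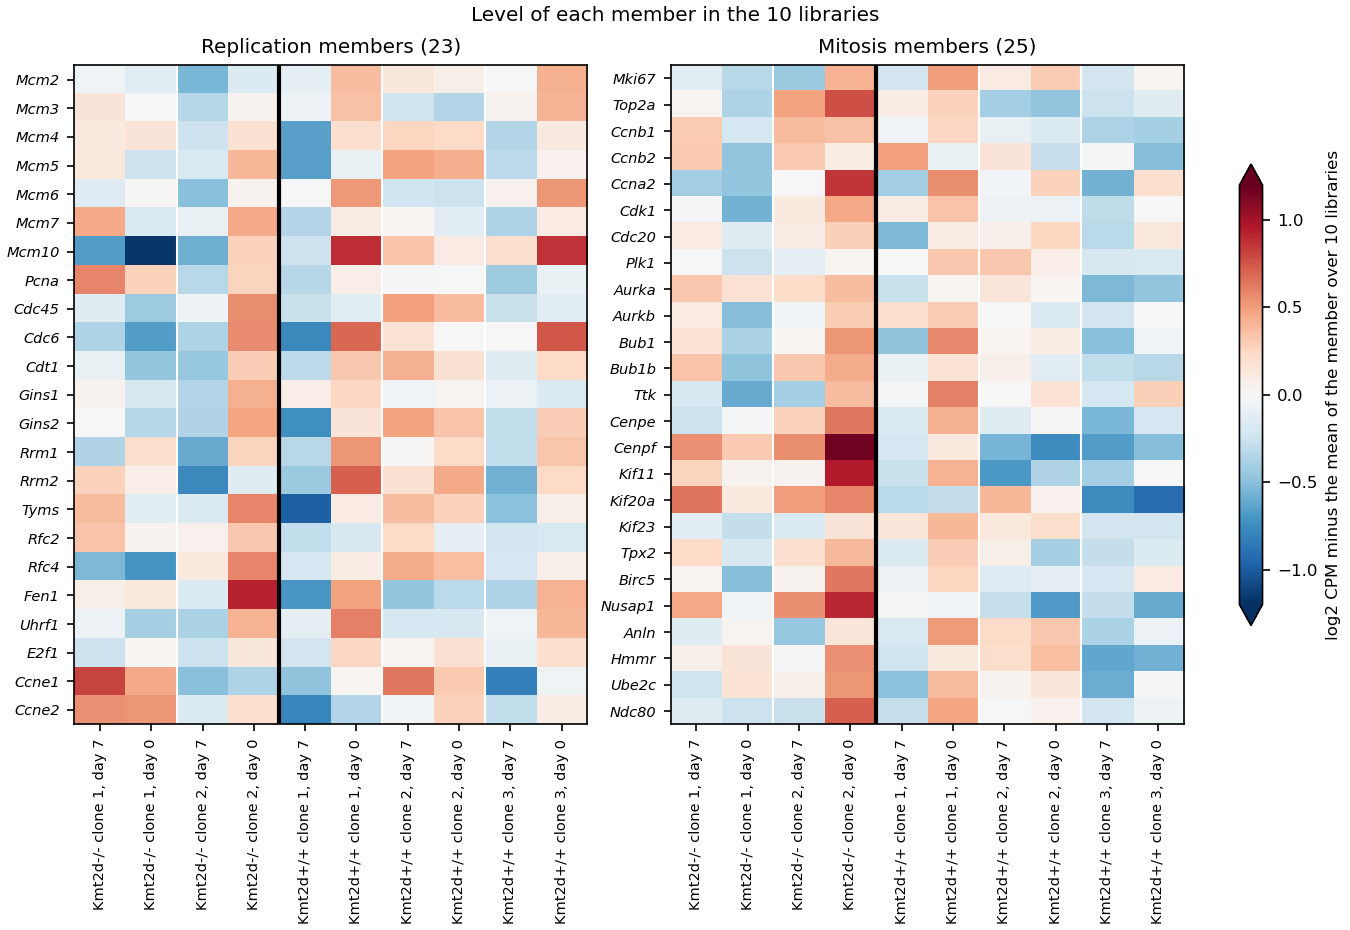
Log2 CPM minus the member's mean (colour; red above, blue below) for 23 replication and 25 mitosis members in the 10 libraries, day 7 left of day 0 within each clone and a black line between genotypes. The column of Kmt2d-/- clone 2 at day 0 is red for all 25 mitosis members, and that of Kmt2d+/+ clone 3 at day 7 is red for 0 of them.

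The next comparisons asked how the members differed between day 7 and day 0 within each genotype, over clones. In the main fit, which held no term for the clone, no member passed an edgeR adjusted p of 0.05 in either genotype. A fit with that term passed Rrm1 and Ccnb2 in Kmt2d+/+ clones, as given below. In the main fit 1.27% of all genes passed in Kmt2d-/- clones and 5.08% in Kmt2d+/+ clones. At an unadjusted p under 0.05 stood 1 replication and 0 mitosis members in Kmt2d-/- clones, beside 14.8% of all genes, and 4 replication and 2 mitosis members in Kmt2d+/+ clones, beside 24.7% of all genes. The median log2 fold change of replication members was -0.23 in Kmt2d-/- clones and -0.30 in Kmt2d+/+ clones, with 20 and 22 of 23 negative. That of mitosis members was -0.05 and -0.19, with 15 and 22 of 25 negative, while the medians over all genes were -0.003 and 0.03. Without Kmt2d-/- clone 2 the medians in the remaining Kmt2d-/- clone were 0.29 for replication and 0.26 for mitosis members, and without clone 1 they were -0.61 and -0.35. In Kmt2d+/+ clones they stayed between -0.50 and -0.18 for replication and between -0.28 and -0.10 for mitosis members when each clone was left out.

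Rrm1, a gene of deoxynucleotide supply, had the lowest adjusted p of the 48 members between days in each genotype. Rrm1 (ENSMUSG00000030978, chromosome 7, 102441695 to 102469771, GRCm38), the large subunit of ribonucleotide reductase, stood at 166 and 141 CPM in the Kmt2d-/- clones at day 7, against 248.5 and 257 CPM at day 0. In Kmt2d+/+ clones 1, 2 and 3 it stood at 170.1, 216 and 174 CPM at day 7, against 309, 253 and 270.0 CPM at day 0. All 5 clones were lower at day 7, as they were for 18.8% of all genes. The log2 fold change was -0.72 (SE 0.18, edgeR adjusted p = 0.105) in Kmt2d-/- clones and -0.57 (SE 0.15, edgeR adjusted p = 0.0607) in Kmt2d+/+ clones. Rrm2, its small subunit, had estimates of -0.13 and -0.72, and Tyms, thymidylate synthase, -0.15 and -0.41, in Kmt2d-/- and Kmt2d+/+ clones. Rrm1 was past 0.05 in Kmt2d+/+ clones with a term for each clone (edgeR adjusted p = 0.0464), without Kmt2d+/+ clone 2 (edgeR adjusted p = 0.0425) and by DESeq2 (adjusted p = 0.0074), and in Kmt2d-/- clones in DESeq2 (adjusted p = 0.013). Over all alternatives its adjusted p ranged from 0.0074 to 0.383 in Kmt2d+/+ clones and from 0.013 to 0.602 in Kmt2d-/- clones.

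Of the whole set, 3 replication members (Rrm1, Fen1, E2f1) and 4 mitosis members (Cenpe, Anln, Hmmr, Ube2c) were lower at day 7 in all 5 clones, beside 18.8% of all genes. Fen1, the nuclease that trims Okazaki fragments, stood at 63.4 and 53.8 CPM in Kmt2d-/- clones at day 7, against 65.8 and 115 CPM at day 0. In Kmt2d+/+ clones it stood at 37.1, 43.7 and 46.5 CPM at day 7, against 84.5, 48.1 and 80.6 CPM at day 0. Kmt2d-/- clone 1 and Kmt2d+/+ clone 2 differed little between days. The log2 fold change was -0.62 in Kmt2d-/- clones (edgeR adjusted p = 0.432) and -0.74 in Kmt2d+/+ clones (SE 0.26, edgeR adjusted p = 0.126). E2f1, the transcription factor that activates many of these genes, stood at 68.1 and 67.7 CPM in Kmt2d-/- clones at day 7, against 82.2 and 88.9 CPM at day 0. In Kmt2d+/+ clones it stood at 69.2, 83.2 and 76.6 CPM at day 7, against 96.5, 92.0 and 93.4 CPM at day 0. Its estimates were close in the genotypes, -0.33 in Kmt2d-/- and -0.30 in Kmt2d+/+ clones (edgeR adjusted p = 0.340 and 0.169), and its levels spanned the narrowest range of the 48 members. Ube2c, the ubiquitin-conjugating partner of the anaphase promoting complex, stood at 46.3 and 56.9 CPM in Kmt2d-/- clones at day 7, against 61.1 and 78.6 CPM at day 0, and at 38.7, 56.3 and 36.2 CPM in Kmt2d+/+ clones, against 71.1, 60.4 and 54.0 CPM. Its log2 fold change was -0.44 and -0.50 (edgeR adjusted p = 0.499 and 0.180). Anln, a scaffold of the cleavage furrow, had estimates of -0.38 and -0.36 (edgeR adjusted p = 0.559 and 0.311).

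Ccnb2, the gene of cyclin B2, stood on the other side. It was the only member higher at day 7 in all 5 clones, as were 18.4% of all genes. Its level was 84.1 and 84.0 CPM in Kmt2d-/- clones at day 7, against 48.9 and 71.9 CPM at day 0, and 95.05, 75.3 and 67.1 CPM in Kmt2d+/+ clones at that day, against 64.1, 55.9 and 47.5 CPM. The log2 fold change was 0.48 (SE 0.24, edgeR adjusted p = 0.423) in Kmt2d-/- and 0.50 (SE 0.20, edgeR adjusted p = 0.161) in Kmt2d+/+ clones. With a term for each clone its adjusted p in Kmt2d+/+ clones was 0.048 in edgeR, with 0.048 to 0.469 over all alternatives. Ccna2, the gene of cyclin A2, had estimates of -0.53 and -0.67, Ccnb1, the gene of cyclin B1, 0.24 and -0.08, and Cdk1, their kinase, 0.02 and -0.19. With the term for each clone, 5.57% of all genes passed in Kmt2d-/- clones and 18% in Kmt2d+/+ clones. In DESeq2 these shares were 6.37% and 14.7%.

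**Figure D4:**
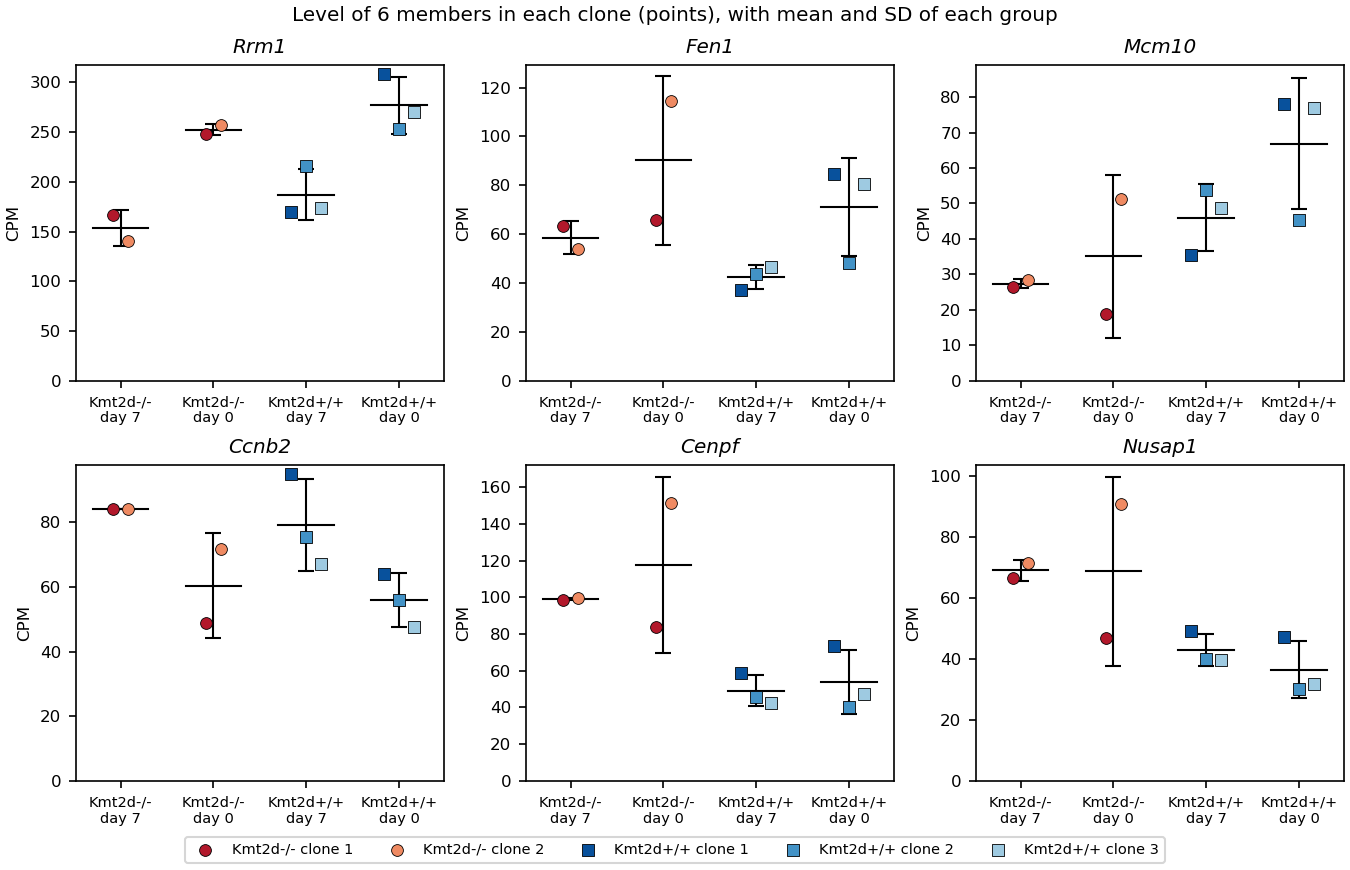
CPM (vertical axis, from 0) of Rrm1, Fen1, Mcm10, Ccnb2, Cenpf and Nusap1 in each clone (points) by group, with group mean and SD (n = 2 for Kmt2d-/- and n = 3 for Kmt2d+/+). Rrm1 points lie lower at day 7 in both genotypes, Ccnb2 points higher within each clone, and the Cenpf points of Kmt2d-/- clones at day 7 (98.8 and 99.6 CPM) lie above those of Kmt2d+/+ clones (42.6 to 58.6 CPM).

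By role, the 3 genes of deoxynucleotide supply (Rrm1, Rrm2, Tyms) had the widest range of medians among clones, at 0.19 and -0.76 in Kmt2d-/- clones 1 and 2, against -1.08, -0.23 and -0.63 in Kmt2d+/+ clones 1, 2 and 3. For the 6 genes of origin licensing and firing (Cdc6, Cdt1, Mcm10, Cdc45, Gins1, Gins2) the median log2 ratio of day 7 over day 0 was 0.32 and -0.81 in Kmt2d-/- clones 1 and 2, against -0.77, 0.15 and -0.49 in Kmt2d+/+ clones 1, 2 and 3. Cdc6, a loader of the helicase, ranged from -1.46 in Kmt2d+/+ clone 1 to 0.30 in Kmt2d-/- clone 1. The 6 helicase genes (Mcm2 to Mcm7) gave 0.12 and -0.49 in Kmt2d-/- clones, against -0.50, 0.05 and -0.45 in Kmt2d+/+ clones. The 3 mitotic kinases (Plk1, Aurka, Aurkb) gave 0.26 and -0.15, against -0.30, 0.16 and -0.06. The 6 spindle checkpoint and kinetochore genes (Bub1, Bub1b, Ttk, Ndc80, Cenpe, Cenpf) gave 0.33 and -0.56, against -0.61, -0.05 and -0.26. Every role group except the anaphase promoting complex partners had a positive median in Kmt2d-/- clone 1, and all had a negative median in Kmt2d-/- clone 2 and in Kmt2d+/+ clones 1 and 3.

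The comparison of genotypes asked whether loss of the Kmt2d SET domain goes with other levels of these genes. At day 7 no member passed (1.87% of all genes did), and 0 replication and 2 mitosis members were at an unadjusted p under 0.05, beside 19.9% of all genes. At day 0 no member passed either (2.15% of all genes did), and 1 replication and 2 mitosis members were at an unadjusted p under 0.05, beside 20.2%. Mitosis members had a median log2 fold change of 0.24 at day 7, with 19 of 25 positive, and replication members -0.08, with 11 of 23 positive. At day 0 the medians were 0.14, with 15 of 25 positive, and -0.09, with 9 of 23 positive. The medians over all genes were -0.02 and 0.01. The mitosis median at day 7 was 0.15 to 0.38 when each clone was left out (0.38 without Kmt2d+/+ clone 2), and the replication median was -0.23 to 0.17, positive without Kmt2d+/+ clone 2 (0.17) and without Kmt2d-/- clone 2 (0.09). At day 0 leaving out Kmt2d-/- clone 2 gave a mitosis median of -0.28 and leaving out clone 1 gave 0.44, and the replication median was -0.27 and 0.11, with 0.004 without Kmt2d+/+ clone 2. A member's 95% interval reached a median of 0.62 log2 units either side of its estimate at day 7. For 32 of 48 members the interval lay within a 2-fold change in both directions (35 of 48 at day 0). Over all 15467 genes tested this held for 6691 at day 7 and 6383 at day 0.

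At day 7 every Kmt2d-/- clone stood above every Kmt2d+/+ clone for 10 of 25 mitosis members (Ccnb1, Cdc20, Aurka, Bub1b, Cenpf, Kif11, Kif20a, Tpx2, Birc5 and Nusap1) and for 1 of 23 replication members (Fen1), beside 17.9% of all genes. Every Kmt2d-/- clone stood below for 0 mitosis and 3 replication members (Mcm10, Rrm1, E2f1), beside 19.8%. At day 0 the groups stood apart above for 3 mitosis members (Aurka, Cenpf, Kif20a) and 2 replication members (Pcna, Rfc2), beside 18.6% of all genes. They stood apart below for 0 mitosis and 3 replication members (Mcm2, Rrm2, E2f1), beside 18.3%. With 2 clones against 3 such a pattern is common among all genes, and it was not tested as a property of the list.

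Cenpf, a large kinetochore protein of the outer corona, had the largest estimate of the members on both days. It stood at 98.8 and 99.6 CPM in the Kmt2d-/- clones at day 7, against 58.6, 45.8 and 42.6 CPM in Kmt2d+/+ clones 1, 2 and 3. At day 0 it stood at 83.8 and 151.5 CPM in Kmt2d-/- clones, against 73.3, 40.2 and 47.6 CPM in Kmt2d+/+ clones. The Kmt2d-/- clones were above the Kmt2d+/+ clones at both days, by little in clone 1 at day 0. The fold was 2.02 at day 7 (95% interval 1.25 to 3.27, log2 SE 0.31, edgeR adjusted p = 0.1175) and 2.19 at day 0 (95% interval 1.36 to 3.54, edgeR adjusted p = 0.0843). DESeq2 made more false calls than the other tools in simulated data of this design. Cenpf was the only member past 0.05 in it between genotypes (DESeq2 adjusted p = 0.0335 at day 7 and 0.0159 at day 0). There 10.3% and 10.6% of all genes passed. Over all alternatives its adjusted p ranged from 0.0335 to 0.379 at day 7 and from 0.0159 to 0.428 at day 0, and its log2 fold change at day 0 was 0.65 without Kmt2d-/- clone 2.

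Among the other mitosis members, Nusap1, a protein that bundles spindle microtubules, stood at 66.6 and 71.4 CPM in Kmt2d-/- clones at day 7, against 49.0, 40.01 and 39.7 CPM in Kmt2d+/+ clones. Day 0 gave 46.7 and 90.7 CPM, against 47.2, 30.2 and 31.8 CPM, and the groups overlapped. The log2 fold change was 0.69 at day 7 (SE 0.29, edgeR adjusted p = 0.232) and 0.92 at day 0 (edgeR adjusted p = 0.125). Without Kmt2d-/- clone 2 the day 0 value was 0.36. The other spindle motors and microtubule factors had log2 fold changes at day 7 of 0.73 for Kif20a, the motor of the central spindle, 0.60 for Kif11, which pushes the spindle poles apart, 0.34 for Tpx2, the activator of Aurora A, 0.20 for Hmmr and -0.18 for Kif23. Aurka, which encodes Aurora A, stood at 64.3 and 60.1 CPM in Kmt2d-/- clones at day 7, against 42.9, 57.0 and 35.5 CPM in Kmt2d+/+ clones. At day 0 it stood at 58.3 and 66.7 CPM, against 52.6, 52.4 and 37.0 CPM (log2 fold change 0.46 at day 7 and 0.40 at day 0, edgeR adjusted p = 0.303 and 0.366). Mki67, the gene of the proliferation antigen Ki-67, had log2 fold changes of -0.17 at day 7 and -0.20 at day 0, and Birc5, the gene of survivin in the chromosomal passenger complex, 0.18 and 0.08.

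Among replication members the lowest estimates belonged to Mcm10, which helps to start and stabilize the fork. It stood at 26.5 and 28.3 CPM in Kmt2d-/- clones at day 7, against 35.6, 53.7 and 48.7 CPM in Kmt2d+/+ clones. At day 0 it stood at 18.8 and 51.4 CPM, against 78.0, 45.4 and 77.0 CPM, and the groups overlapped. The log2 fold change was -0.75 at day 7 (SE 0.41, edgeR adjusted p = 0.352) and -0.93 at day 0 (edgeR adjusted p = 0.247), where leaving out Kmt2d-/- clone 1 gave -0.38 and leaving out clone 2 gave -1.82. Mcm2 stood at 292 and 207 CPM in Kmt2d-/- clones at day 7, against 281, 332 and 303 CPM in Kmt2d+/+ clones, and at 275 and 271 CPM at day 0, against 390.5, 319 and 408 CPM. Its groups overlapped at day 7 and not at day 0 (log2 fold change -0.29 and -0.45, edgeR adjusted p = 0.439 and 0.225). All 6 genes of origin licensing and firing had negative estimates at day 7, from -0.75 to -0.08, as did 7947 of all 15467 genes tested. At day 0, 4 of these 6 genes were negative, with a range of -0.93 to 0.11. The G1/S cyclin gene Ccne2 had an estimate of 0.58 at day 7 (SE 0.29, edgeR adjusted p = 0.314), and that of Pcna was 0.45 and became -0.09 without Kmt2d-/- clone 1.

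**Figure D5:**
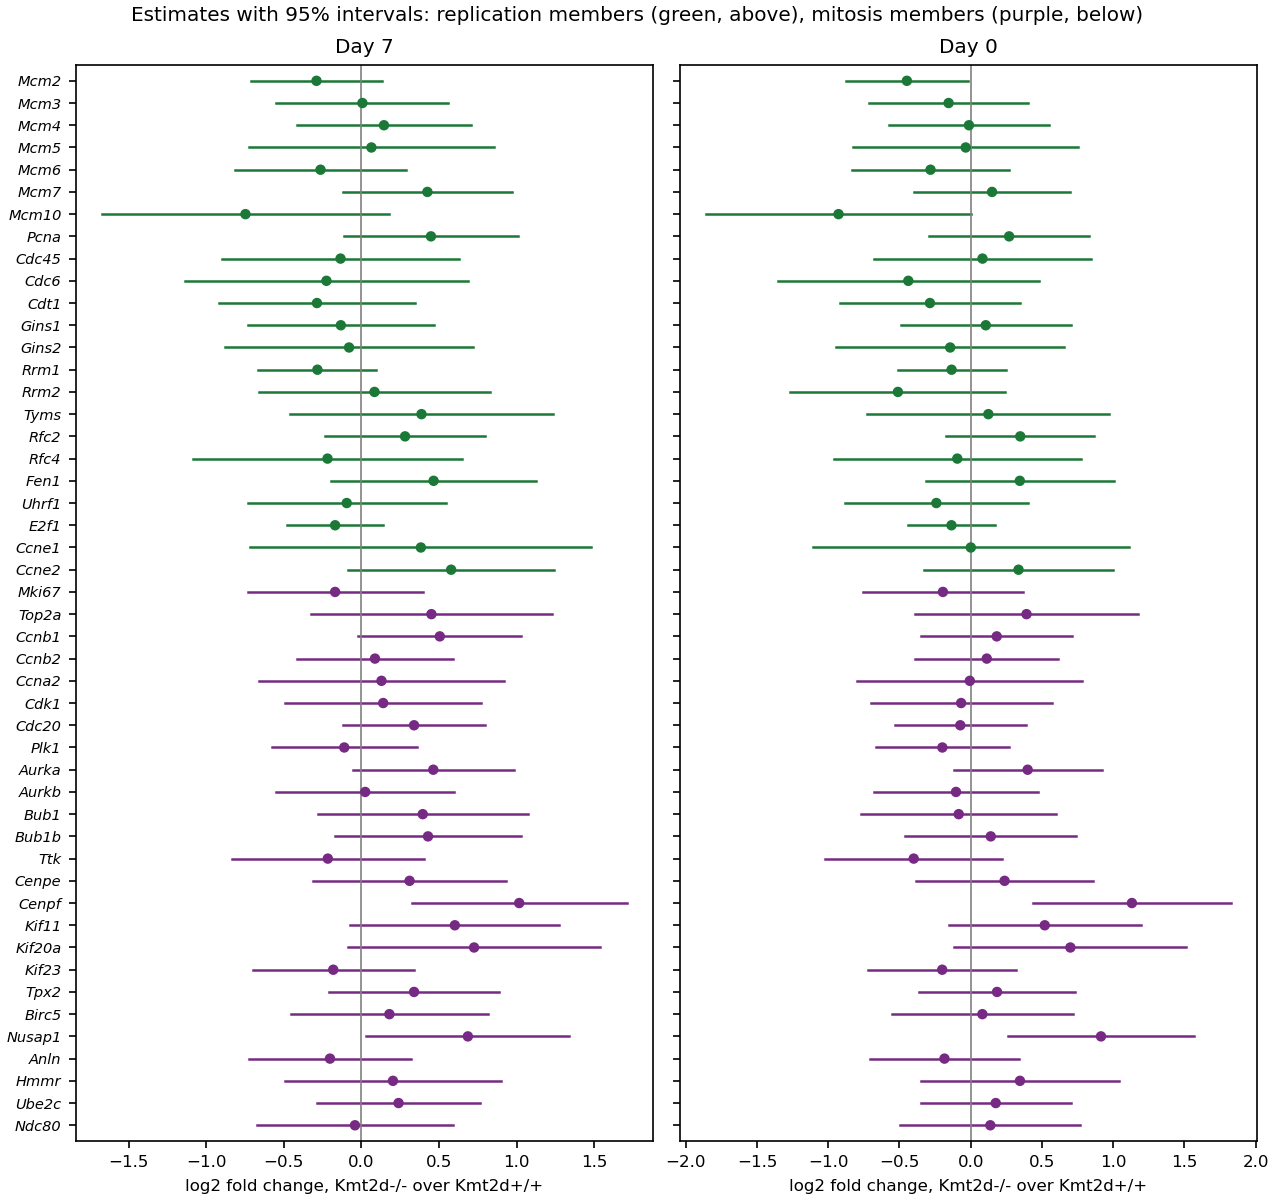
Log2 fold change of Kmt2d-/- over Kmt2d+/+ (horizontal axis) with 95% intervals at day 7 and day 0 for replication members (green) and mitosis members (purple). No member passed the adjusted test, and the intervals of Cenpf and Nusap1 lie above 0 on both days.

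The last comparison asked whether the day effect differed between genotypes. No member and no other gene passed (0% of all genes in edgeR, 0.175% in DESeq2), and 0 members were at an unadjusted p under 0.05, beside 3.67% of all genes. The median difference was 0.15 for replication and 0.07 for mitosis members, against -0.03 over all genes. Without Kmt2d-/- clone 1 the medians were -0.33 and -0.21, and without Kmt2d-/- clone 2 they were 0.53 and 0.48, and without Kmt2d+/+ clone 1 they were -0.07 and -0.05, so their sign rested on single clones. The largest estimate was that of Rrm2, at 0.60 (SE 0.47). Of the 48 intervals, 20 lay within a 2-fold change in both directions, beside 4840 of all 15467 genes tested. For 0 members did both Kmt2d-/- clones move one way and all 3 Kmt2d+/+ clones the other. The 37 members with opposite moves in the Kmt2d-/- clones could not meet this rule, and its share of all genes was not counted. The genotype and day comparisons share the same 10 libraries.

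Other genes of these processes also differed in direction among clones. Of 61 other replication genes, 16 and 59 were lower at day 7 in Kmt2d-/- clones 1 and 2, against 53, 33 and 54 in Kmt2d+/+ clones 1, 2 and 3. Of 78 other mitosis genes, 11 and 70 were lower in Kmt2d-/- clones and 67, 40 and 54 in Kmt2d+/+ clones. Between genotypes 0 of the 61 passed at either day, with medians of 0.02 at day 7 and -0.005 at day 0. Over all genes 1.87% passed at day 7 and 2.15% at day 0. Of the 78, 0 passed at day 7 (median 0.13) and 1 rose in Kmt2d-/- clones at day 0 (median 0.13), Psrc1, a spindle protein gene, at 3.62 and 7.54 CPM against 1.06, 1.11 and 0.990 CPM (log2 fold change 2.40, edgeR adjusted p = 0.0395). Its call ended in 7 of 14 alternatives, and its log2 value was 1.78 without Kmt2d-/- clone 2. From day 0 to day 7 no gene of either list passed in Kmt2d-/- clones, beside 1.27% of all genes. Of the 61 and the 78, 1 each passed in Kmt2d+/+ clones, beside 5.08% of all genes. In Kmt2d+/+ clones Prim2, the large subunit of primase, fell to 42.7, 35.6 and 48.6 CPM at day 7, against 99.6, 62.2 and 93.6 CPM at day 0 (log2 fold change -1.01, edgeR adjusted p = 0.0332). Cdc25b, a phosphatase that activates Cdk1, rose to 62.5, 53.4 and 57.2 CPM, against 31.99, 41.2 and 30.5 CPM (log2 fold change 0.74, edgeR adjusted p = 0.0428). These 2 calls ended without Kmt2d+/+ clone 1 or 3 or either Kmt2d-/- clone.

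Among 27 genes of the DREAM complex, the RB family and their cyclins, kinases and inhibitors, 2 fell in Kmt2d-/- clones at both days and 1 rose at day 0, with medians of 0.12 at day 7 and 0.25 at day 0. Of all genes, 1.87% passed at day 7 and 2.15% at day 0. The 2 that fell were D cyclins. Ccnd1, the gene of cyclin D1, which starts the inactivation of RB, stood at 14.6 and 10.0 CPM in Kmt2d-/- clones at day 7, against 130.2, 182 and 168 CPM in Kmt2d+/+ clones. Its levels at day 0 were 23.3 and 20.2 CPM, against 226, 137 and 278 CPM. It fell at both days (log2 fold change -3.70 and -3.29, edgeR adjusted p = 0.0067 and 0.00691). Ccnd2, the gene of cyclin D2, stood at 6.08 and 8.65 CPM at day 7, against 188, 163 and 312 CPM, and at 23.6 and 12.1 CPM at day 0, against 241, 137 and 283 CPM (log2 fold change -4.90 and -3.63, edgeR adjusted p = 0.00747 and 0.0167). At day 7 the call ended without Kmt2d-/- clone 1 for Ccnd1 (adjusted p = 0.0526) and Ccnd2 (adjusted p = 0.0634) and without Kmt2d-/- clone 2 for Ccnd1 (adjusted p = 0.0512). At day 0 the calls of both ended without Kmt2d+/+ clone 1 or 3 or either Kmt2d-/- clone, with log2 values of -4.19 to -3.08. Lin52, a MuvB subunit gene, rose in Kmt2d-/- clones at day 0 (log2 fold change 1.35, edgeR adjusted p = 0.0418), and its call ended in 7 of 14 alternatives. It lies on chromosome 12 beyond 40 Mb, where 328 of 374 genes tested (87.7%) had a positive estimate at day 0 (median 0.72). Over all genes tested 50.3% did (median 0.006). The part of this position in the Lin52 call was not tested.

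Of the same 27 genes, 0 passed between days in Kmt2d-/- clones, beside 1.27% of all genes. In Kmt2d+/+ clones, where 5.08% of all genes passed, 3 rose (median 0.07), all of them inhibitors of cyclin-dependent kinases. Cdkn1a, the gene of p21, rose to 169, 67.9 and 72.1 CPM at day 7, against 1.86, 16.2 and 4.68 CPM at day 0 (log2 fold change 3.76, edgeR adjusted p = 0.0307). Cdkn1c, the gene of p57, rose to 115, 13.6 and 20.5 CPM, against 0.916, 3.69 and 2.91 CPM (log2 fold change 4.30, edgeR adjusted p = 0.0484). Cdkn2b, the gene of p15, rose to 78.9, 89.4 and 105 CPM, against 38.8, 53.5 and 44.0 CPM (log2 fold change 1.01, edgeR adjusted p = 0.0399). In Kmt2d-/- clones 1 and 2 Cdkn1a stood at 132 and 217 CPM at day 7, against 73.2 and 64.6 CPM at day 0, and Cdkn1c at 256 and 89.3 CPM, against 6.57 and 1.35 CPM, and neither passed (edgeR adjusted p = 0.526 and 0.0910). Cdkn2b lay on the other side there, lower at day 7 in both Kmt2d-/- clones, at 40.03 and 65.3 CPM, against 107 and 85.9 CPM at day 0 (log2 fold change -0.87, edgeR adjusted p = 0.167). The difference of its day effects between genotypes was -1.88 on the log2 scale, which did not pass in edgeR (adjusted p = 1) and passed in DESeq2 (adjusted p = 0.0054). In Kmt2d+/+ clone 2, 15 of 23 replication members were not lower at day 7. Its Cdkn1a level was the highest of the Kmt2d+/+ clones at day 0 and the lowest at day 7. That day 7 level (67.9 CPM) was near the 72.1 CPM of Kmt2d+/+ clone 3, in which 22 of 23 replication members were lower. In Kmt2d-/- clone 1, Cdkn1a and Cdkn1c were both higher at day 7, and 5 of 23 replication members were lower. The log2 fold change of Cdkn1a was 2.75 without Kmt2d+/+ clone 1 and 5.19 without clone 2, and that of Cdkn1c 2.37 and 5.12. All 3 calls ended without Kmt2d+/+ clone 1 or 3, those of Cdkn1c and Cdkn2b without Kmt2d+/+ clone 2, and those of Cdkn1a and Cdkn1c without either Kmt2d-/- clone. The part of these inhibitors in the members' levels was not tested.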

How the data were processed

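The authors deposited estimated counts per gene, without normalization, in 1 table of 20 columns (27911 genes), and 0 columns were left without a sample. The GRCm38 build and the tools DESeq2, limma, edgeR and Salmon are named per the submitters' processing notes. Their versions and the strand setting were not given in the sources used here. Estimated counts split reads between similar transcripts, so values of near-identical copies are uncertain. The 2 flow-cell runs of a library were summed and rounded, and intervals cover the spread in these libraries.

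One edgeR model (4.0.16, R 4.3.3) with a mean for each of 4 groups was fitted to all 10 libraries, with filterByExpr (15467 genes), TMM scaling, the quasi-likelihood F test (6 residual degrees of freedom) and Benjamini-Hochberg adjustment over all genes, with a threshold of 0.05. CPM values use TMM-scaled library sizes. Single-clone ratios carry no test. Symbols, exon lengths and coordinates came from GENCODE vM21. Alternatives were DESeq2 1.42.0, limma-voom (3.58.1), other scalings, a floor of 5 CPM or no floor at all, each run by itself, fits limited to the compared groups, a clone term, and leaving out every clone in turn. The script was tested on simulated data, where DESeq2 made more false calls in this design than the other tools. DESeq2 was therefore used as an alternative only.

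The same clone gave both days, and deviations from group means correlated within clones (r = 0.41 to 0.61 over 10537 genes), so the clones pair the days. The 2 Kmt2d-/- clones share a value (r = 0.524), since deviations from a mean of 2 mirror each other. The main fit held no term for the clone, so its day comparisons leave this pairing out. Its shared estimate of the spread treats both libraries of a clone as independent. That limit also holds for the genotype comparisons and the difference of day effects. Members passing were to be named first, else the 3 replication and 3 mitosis members with the smallest p and the smallest p of each role, and up to 4 genes of each other list. The members and lists were chosen with earlier results of these data known.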

Additional observations from a re-analysis of the deposited data

How the results depend on the processing

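No member passed in the fit as reported, and these alternatives made calls. DESeq2 passed 1 mitosis member (Cenpf) at day 7 and 1 at day 0 between genotypes and 1 replication member (Rrm1) in each day comparison, where limma-voom passed 0 members in all 5 comparisons. The replicate block, a term for each clone that follows from the pairing of days, passed 1 replication and 1 mitosis member (Rrm1, Ccnb2) in Kmt2d+/+ clones and 0 in Kmt2d-/- clones. Over all genes it passed 862 in Kmt2d-/- clones, against 196 without it, and 2789 in Kmt2d+/+ clones, against 786, and it changed no other call of a member. Leaving out each clone passed 0 to 1 replication members in Kmt2d+/+ clones over the days (1 without clone 2) and 0 members in the other comparisons.

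Counts over all genes moved more. For genotype at day 7 (290) they were 1593 in DESeq2, 533 in limma-voom, 184 with run 2 alone, 55 with only the groups compared and 10 to 272 with each clone left out. At day 0 (332) they were 1632 in DESeq2, 9 with only the groups compared and 10 to 912 with each clone left out. For the days in Kmt2d-/- clones they were 986 in DESeq2, 0 with only the groups compared (where fewer samples estimate the spread) and 0 to 183 with each clone left out. In Kmt2d+/+ clones they were 2280 in DESeq2 and 0 to 862 with each clone left out, and the difference of day effects gave 27 in DESeq2. Medians with each clone left out were 0.148 to 0.379 (mitosis, day 7), -0.274 to 0.106 (replication, day 0), -0.284 to 0.442 (mitosis, day 0), and for the difference of day effects -0.327 to 0.533 (replication) and -0.205 to 0.484 (mitosis). Single members turned sign for Pcna at day 7 (-0.087 without Kmt2d-/- clone 1, 0.835 without clone 2), Ndc80 over the days in Kmt2d-/- clones (-0.988 without clone 1, 0.111 without clone 2), Mcm7 (-0.312 without Kmt2d-/- clone 1, 0.869 without clone 2) and Gins1 (-0.73 without Kmt2d-/- clone 1, 0.282 without clone 2) in the difference of day effects. The cause was not tested for any of these.

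With 2 Kmt2d-/- clones, a fit without either of them leaves a lone clone that is assumed to vary like the others. The lowest member count in a library was 352. The parts of depth and of the number of clones in the precision were not tested.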
